A study of Arabidopsis thaliana with 4 samples.

Results

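The CIN-type TCP genes are 8 loci of Arabidopsis thaliana, TCP2 (AT4G18390), TCP3 (AT1G53230), TCP4 (AT3G15030), TCP5 (AT5G60970), TCP10 (AT2G31070), TCP13 (AT3G02150), TCP17 (AT5G08070) and TCP24 (AT1G30210). They were taken by locus from a count table of 24904 genes, and all 8 had a row and passed the filter on low counts that left 20200 genes for testing. The table compares whole leaves with leaf protoplasts, that is leaf cells freed of their walls, of wild-type Col-0 plants aged 6 weeks that had grown in days of 8 h light and 16 h dark. Both groups have 2 libraries of poly(A) RNA. The protoplasts came from fully developed leaves whose lower epidermis was pulled off with tape, and which were then cut and digested for 2 h with 1% cellulase and 0.3% macerozyme in 0.6 M mannitol. The leaf samples were not protoplasted. The comparison therefore joins the loss of cell types and every step of the isolation, which cannot be told apart. The submitters describe the replicates as biological without naming plants or days, so a p-value here reflects how far libraries of a group differ, and that spread may be technical.

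TCP proteins are plant transcription factors named after TEOSINTE BRANCHED 1, CYCLOIDEA and PCF, and they bind DNA through a basic helix-loop-helix domain of their own. The CIN type, named after CINCINNATA of Antirrhinum, slows cell division and moves the growing leaf towards expansion and differentiation, and plants that lack several members have crinkled leaves. In Arabidopsis the transcripts of TCP2, TCP3, TCP4, TCP10 and TCP24 are cleaved under the guidance of the microRNA miR319, while those of TCP5, TCP13 and TCP17 are not, and this divides the family into a miR319 group and a TCP5 group.

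The microRNA and its sites are shown because they separate these groups by sequence alone. The mature forms were read from the RefSeq annotation of assembly TAIR10.1, with the seed, bases 2 to 8, in capitals. The products of MIR319A and MIR319B are identical, and all 3 forms share the seed.
miR319a: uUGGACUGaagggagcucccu
miR319b: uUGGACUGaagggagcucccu
miR319c: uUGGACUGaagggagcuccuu
The best match to miR319a in each transcript was sought without gaps. The sites of the miR319 group are written below as DNA from 5′ to 3′, and capitals mark bases that form a Watson-Crick pair with miR319a.
TCP2 site: caGGgGgaCCCTTCAGTCCAA
TCP24 site: taGGgGgaCCCTTCAGTCCAA
TCP10 site: AaGGgGtaCCCTTCAGTCCAg
TCP3 site: gaGGgGtcCCCTTCAGTCCAt
TCP4 site: gaGGgGtcCCCTTCAGTCCAg
All 5 sites lie in the coding sequence, and in TAIR10.1 coordinates the TCP2 site is at chr4:10163402-10163422 (minus strand), TCP24 at chr1:10628989-10629009 (minus), TCP10 at chr2:13221210-13221230 (minus), TCP3 at chr1:19850522-19850542 (minus) and TCP4 at chr3:5063300-5063320 (plus). They are identical at 17 of 21 positions and share the run CCCTTCAGTCCA. TCP2, TCP10 and TCP24 have 5 positions without a Watson-Crick pair, of which 1, 3 and 1 are G:U pairs. TCP3 and TCP4 have 6, of which 3 and 4 are G:U pairs. In the TCP5 group the best windows have 8 such positions in TCP17 and 9 in TCP5 and TCP13, of which 2, 1 and 0 are G:U pairs. Among 31460 annotated genes, 413 (1.31%) have a window with 6 or fewer such positions, and 9 is the most frequent value. A match is a description of the sequence and not a measurement of cleavage.

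**Figure D1:**
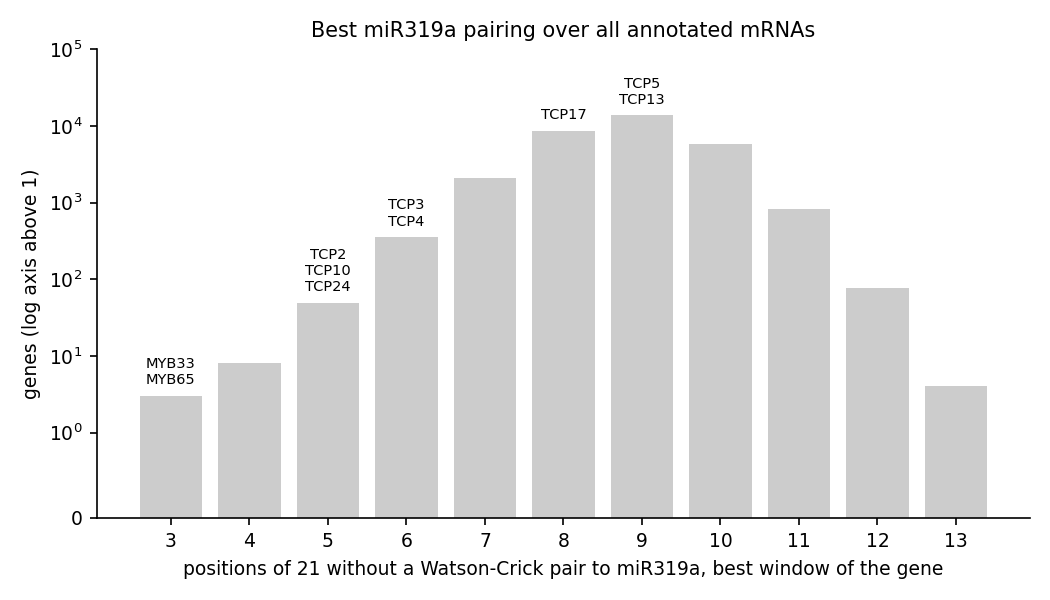
Number of annotated genes (vertical axis, log above 1) by the number of positions, of 21, that lack a Watson-Crick pair with miR319a in the gene's best window (horizontal axis); 1 gene at 19 positions is not drawn. The miR319 group stands at 5 and 6, the TCP5 group at 8 and 9 where most genes lie, and MYB33 and MYB65 at 3.

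Of the 8 genes, 7 fell in protoplasts and 1, TCP13, rose. The miR319 group fell by 2.18-fold to 3.29-fold, and TCP5 and TCP17 fell by 9.88-fold and 7.99-fold, while TCP13 rose 2.84-fold (edgeR quasi-likelihood test, all adjusted p at most 2.66e-07). The background of this comparison is broad: 80.5% of the tested genes passed the same threshold, 40.7% lower and 39.8% higher in protoplasts. A fall of at least 2-fold was called for 19.7% of genes and one of at least 4-fold for 11.2%. None of the 8 genes had leaf and protoplast libraries whose CPM overlapped, which also held for 90.3% of all tested genes. The median log2 fold change (protoplast minus leaf) was -1.64 over the 8 genes and -0.04 over all tested genes. In bulk RNA, fewer cells that express a gene and less RNA per cell cannot be told apart.

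**Figure D2:**
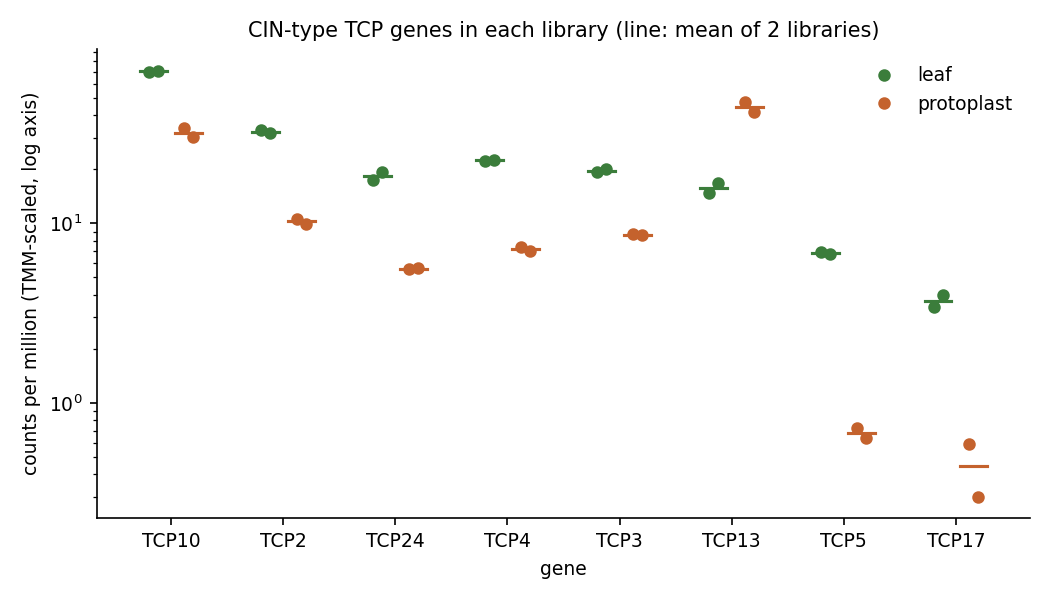
CPM, counts divided by the TMM-scaled library size and multiplied by 1e6 (log axis), of the 8 genes in each leaf (green) and protoplast (orange) library, with a line at the mean of the 2 libraries of a group. The groups do not overlap for any of the 8 genes, and TCP13 is the gene whose protoplast libraries lie above its leaf libraries.

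Levels are given as CPM unless counts are named. The total counts were 42121436 and 43685947 in the leaf libraries and 48503141 and 39958035 in the protoplast libraries. Markers of mesophyll, the photosynthetic tissue that yields most leaf protoplasts, summed to 35218.9 and 35546.0 CPM in leaf and 51000.9 and 51560.1 in protoplasts. The direction of these markers depends on the scaling, since with library size only 6 were lower and 1 higher in protoplasts. Epidermis markers summed to 1066.0 and 1063.2 CPM in leaf and to 5.97 and 6.65 in protoplasts. Vascular markers went from 678.5 and 709.6 to 24.4 and 22.9 CPM, and guard cell markers from 38.7 and 39.4 to 2.54 and 2.44. The labelled tissues thus hold mesophyll markers in both groups, with the other markers low in protoplasts. The part of these cell types in the changes of the TCP genes was not tested.

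TCP10 had the highest level of the family in leaf. It belongs to the miR319 group and had 3862 and 4100 counts in leaf against 1255 and 904 in protoplasts, which is 69.3 and 71.0 CPM against 33.9 and 30.2. Both protoplast libraries lay under both leaf libraries. Its log2 fold change was -1.13 ± 0.06 (SE; adjusted p = 4.04e-09, edgeR). TCP3, which in Arabidopsis acts in the same pathway and activates genes that hold back boundary genes at the leaf margin, had 19.3 and 20.1 CPM in leaf and 8.72 and 8.59 in protoplasts. The groups did not overlap, and the log2 fold change of -1.19 ± 0.08 was within 1 SE of that of TCP10. An antisense locus, AT1G53233, overlaps TCP3 by 1525 bases and had 5, 14, 2 and 0 counts in the 4 libraries. The library kit keeps strand, but the strand setting of the counting is not stated, so reads shared by both loci may have been assigned to either.

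TCP4, the best-studied gene of the type, promotes the change from division to differentiation and activates the jasmonate synthesis gene LOX2. Its counts were 1241 and 1303 in leaf and 275 and 211 in protoplasts, or 22.3 and 22.6 against 7.42 and 7.05 CPM. Its means were 22.4 ± 0.221 and 7.24 ± 0.265 CPM (SD, n = 2), a gap far wider than the spread within either group, and the log2 fold change was -1.63 ± 0.08. TCP2 and TCP24 each share their longest identical run of bases with the other (24 bases) and had fold changes close to each other. TCP3 and TCP4 share the longest run of the family, 38 bases, and had log2 fold changes of -1.19 and -1.63. TCP2 had 33.1 and 31.7 CPM in leaf against 10.6 and 9.96 in protoplasts, with a log2 fold change of -1.65 ± 0.07. TCP24 had 17.5 and 19.3 CPM in leaf against 5.56 and 5.61 in protoplasts, with a log2 fold change of -1.72 ± 0.09. Within the miR319 group the fold changes therefore ran from -1.72 to -1.63 for TCP2, TCP4 and TCP24 and from -1.19 to -1.13 for TCP3 and TCP10, and that division was seen after the values were known and was not tested.

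The TCP5 group went in opposite directions. TCP5, which restrains growth of leaf margins and petals, had leaf counts of 385 and 387 and protoplast counts of 27 and 19. Its level went from 6.91 and 6.71 to 0.729 and 0.635 CPM (log2 fold change -3.30 ± 0.17, adjusted p = 1.89e-09, edgeR). TCP17, which acts with TCP5 and TCP13 in shade and warmth responses, had leaf counts of 190 and 231 and protoplast counts of 22 and 9, and the groups did not overlap. The protoplast counts of TCP17 were the lowest of the family, and the SE of its log2 fold change of -3.00 ± 0.26 was the largest. Without protoplast replicate 1 the log2 fold change was -3.63 for TCP17 and -3.43 for TCP5, so which of the pair fell further is not resolved. Between 6.62% and 7.44% of all tested genes had a log2 fold change below those of TCP5 and TCP17.

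TCP13, listed in RefSeq as PTF1, is known in Arabidopsis as a regulator of leaf and root growth under dehydration and shade. Its counts were 819 and 967 in leaf and 1747 and 1255 in protoplasts, which is 14.7 and 16.8 CPM against 47.2 and 41.9. Both protoplast libraries lay above both leaf libraries, with means of 15.7 ± 1.46 and 44.6 ± 3.7 CPM (SD, n = 2). The log2 fold change was 1.5 ± 0.08 (adjusted p = 2.32e-09, edgeR), and 82.7% of the tested genes had a lower one. The rise held under each scaling tried, at 1.18 under upper-quartile scaling and 0.70 under library-size scaling, a setting under which the median over all genes was -0.847. For 1 gene taken alone, the smallest p of an exact two-sided permutation test on these libraries is 0.333, so each call rests on spread shared over genes.

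Within a library, the division of counts among the 8 genes does not depend on scaling. TCP13 took 7.88% (exact 95% interval 7.37 to 8.41) and 8.72% (8.20 to 9.26) of the family's 10394 and 11087 leaf counts. In protoplasts it took 41.1% (39.6 to 42.6) and 40.2% (38.5 to 42.0) of 4247 and 3121 counts. These intervals cover counting error only. TCP10 took 37.2% and 37.0% of the family's counts in leaf and 29.6% and 29.0% in protoplasts. TCP2 went from 17.7% and 16.5% to 9.23% and 9.55%, and TCP5 from 3.70% and 3.49% to 0.636% and 0.609%. For each count of TCP10 there were 0.212 and 0.236 counts of TCP13 in leaf and 1.39 in each protoplast library. For each count of TCP5, its relative without a miR319 site, there were 2.13 and 2.50 counts of TCP13 in leaf and 64.7 and 66.1 in protoplasts. For each of the other 7 genes taken as the divisor, the ratio of TCP13 to it was higher in both protoplast libraries than in both leaf libraries. That follows from TCP13 having risen while the others fell, and is no separate evidence.

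**Figure D3:**
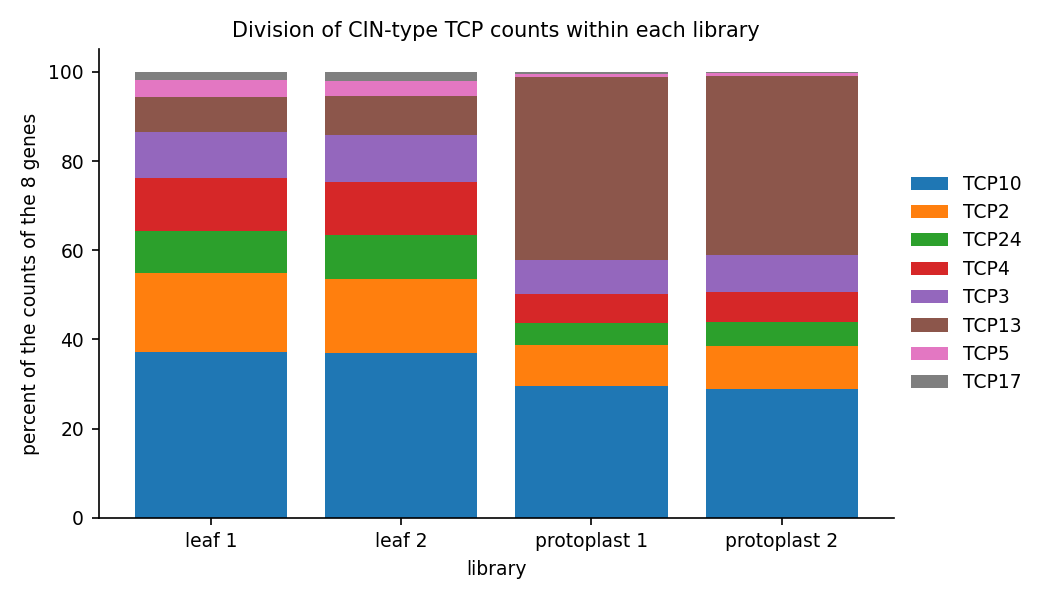
Percent of the summed counts of the 8 genes (vertical axis) that each gene takes in each library (horizontal axis). The band of TCP13 grows from 7.88% and 8.72% in leaf to 41.1% and 40.2% in protoplasts, and the libraries of a group resemble each other.

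Summed over the 8 genes, the level was 186.5 and 192.1 CPM in leaf and 114.7 and 104.3 in protoplasts. Without TCP13 the sums were 171.8 and 175.3 CPM in leaf and 67.5 and 62.4 in protoplasts. The order of the genes was set on CPM per kilobase of coding length. In leaf it ran from TCP10 (64.6 ± 1.14, SD, n = 2) over TCP2 (29.5 ± 0.919), TCP24 (18.9 ± 1.29), TCP4 (17.8 ± 0.175), TCP3 (16.8 ± 0.457) and TCP13 (14.7 ± 1.36) to TCP5 (6.28 ± 0.132) and TCP17 (5.08 ± 0.576). TCP24 and TCP4 differed by less than the SD of TCP24, so their order in leaf is not resolved, and per kilobase of merged exons TCP3 came before both. In protoplasts TCP13 (41.7 ± 3.46) came first, before TCP10 (29.5 ± 2.39), TCP2 (9.35 ± 0.403) and TCP3 (7.36 ± 0.080). TCP4 (5.73 ± 0.209) and TCP24 (5.73 ± 0.038) were at the same level per coding kilobase, as were, within their spread, TCP5 (0.630 ± 0.061) and TCP17 (0.614 ± 0.284). The longest run of bases shared by transcripts of any pair of members was 38, between TCP3 and TCP4, against reads of 150 bases.

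The genes whose levels over the 4 libraries ran most like those of TCP10 and TCP13, the members with the highest mean CPM over the 4 libraries, were sought among 8520 named genes. The measure was the root mean square difference of log2 CPM after centring each gene on its mean. For TCP10 the nearest were G6PD6, a glucose-6-phosphate dehydrogenase (0.0116), RUP1, a repressor of UV-B signalling (0.0137), and PUX3 (0.0202). For TCP13 they were CYP72A7 (0.0159), RLP54 (0.0225) and MAKR5 (0.0233). With 4 libraries in 2 groups, such likeness mostly reflects an equal fold change.

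The other TCP genes moved both ways. Of 13 class I TCP genes, which mostly favour cell proliferation, 12 had a row and 11 were tested. Of these 11, 3 rose, 5 fell and 3 were not called, and their median log2 fold change was -0.20. Calls in both directions were common in this comparison, at 40.7% lower and 39.8% higher over all tested genes, whose median was -0.04. TCP9 rose from 28.5 and 31.1 CPM to 356.7 and 346.3, a log2 fold change of 3.56 ± 0.06 and the largest rise of any TCP gene tested. TCP14, which shapes growth of young internodes and leaves and takes part in immunity, rose from 16.8 and 17.6 to 37.5 and 37.4 CPM. Its close relative TCP15 fell from 11.4 and 14.5 to 1.19 and 1.34 CPM. TCP6 rose from 20 and 13 counts to 41 and 36. TCP7 fell from 58.3 and 58.6 to 17.3 and 16.1 CPM, and TCP22 from 39.1 and 35.5 to 15.7 and 13.8. TCP19 and TCP20 had log2 fold changes of 0.60 and -0.26 that were not called. TCP19 was called with RLE factors (adjusted p = 0.0415; highest over the alternatives 0.47). TCP20 was called lower in 5 alternatives, at -0.58 under upper-quartile scaling, -1.06 under library-size scaling, -0.29 without a filter, -0.39 without leaf replicate 2 and -0.36 without protoplast replicate 1. TCP21, also called CHE and known to repress the clock gene CCA1, had 40.0 and 42.1 CPM in leaf and 40.2 and 39.7 in protoplasts, and the groups overlapped. It was called lower under upper-quartile scaling (-0.37) and library-size scaling (-0.84), values close to the median of all genes there (-0.37 and -0.847). TCP8 and TCP23 were lower by 1.15-fold and 1.22-fold, calls that ended with DESeq2 (adjusted p = 0.142 and 0.0645; lowest over the alternatives 3.3e-10 and 8.86e-10), and that of TCP8 also ended without leaf replicate 2, at an adjusted p of 0.0752. The 3 CYC/TB1-type genes TCP1, TCP12 and TCP18, which act on branching and flower shape, had at most 8 counts in any library and were not tested.

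**Figure D4:**
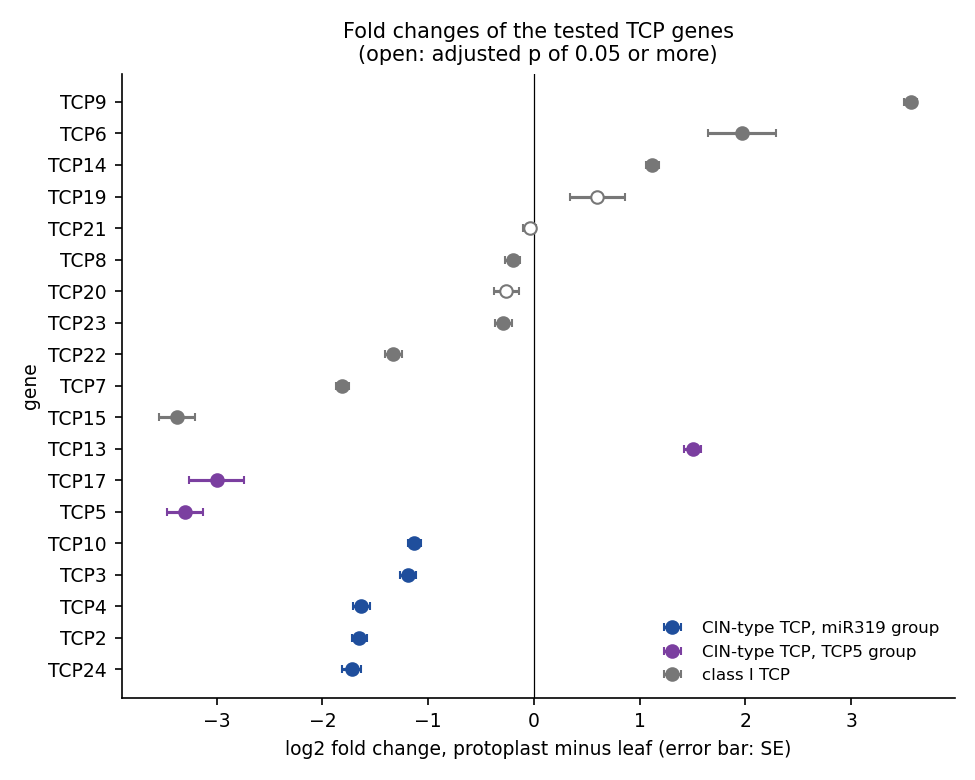
Log2 fold change, protoplast minus leaf, with its SE (horizontal axis) for the 19 tested TCP genes (vertical axis), coloured by type; open symbols did not pass an adjusted p of 0.05. All 5 genes of the miR319 group lie between -1.72 and -1.13, whereas the TCP5 group spans -3.30 to 1.5 and class I -3.37 to 3.56.

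Upstream of the miR319 group, the loci MIR319A, MIR319B and MIR319C have no row in the counts analysed here, so no level of the microRNA or its precursors is given. MYB33 and MYB65, which in Arabidopsis are cleaved under the guidance of the related miR159, leave 3 positions unpaired with miR319a. Both fell, MYB33 from 10.5 and 9.96 to 2.32 and 3.01 CPM (log2 fold change -1.96 ± 0.13) and MYB65 from 102 and 107 counts to 28 and 15. Of 4 tested genes in the list of microRNA loci and MYB targets 2 fell and none rose, with a median of -0.68. The 2 that were not called were precursor loci of miR159, so the median covers both kinds. The all-gene median was -0.04, with 40.7% of the tested genes called lower and 39.8% higher.

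The TIE genes and the genes of TOPLESS and its relatives changed unevenly. TIE1, which joins TCP proteins to the corepressor TOPLESS, had 5 and 4 leaf counts and no protoplast counts. TIE4 fell from 144 and 90 counts to 14 and 13 (log2 fold change -2.35 ± 0.34). TPR3, a TOPLESS-related corepressor, rose from 6.19 and 6.67 to 408.0 and 384.3 CPM, a log2 fold change of 5.94 ± 0.07. TPR4 rose from 94.6 and 96.3 to 170.9 and 172.5 CPM, which was no longer called under library-size scaling (log2 fold change 0.04, adjusted p = 0.466; lowest over the alternatives 2.61e-40). TPL itself had 236.4 and 246.1 CPM in leaf and 272.6 and 258.3 in protoplasts, or 0.14 as log2 fold change, against -0.19 under upper-quartile and -0.67 under library-size scaling. Among all tested genes 39.8% were higher and 40.7% lower. Of 6 tested genes of this list 5 were higher and 1 lower, while 3 were lower under upper-quartile scaling and 4 under library-size scaling. With the replicate number as a block 3 were higher, as they were without leaf replicate 1 and without protoplast replicate 1, where TPL and TPR1 were no longer called.

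Genes that have been described as activated by CIN-type TCP proteins did not move as one. Among all tested genes, too, calls went both ways, with 40.7% lower and 39.8% higher. Of 10 such targets tested, 6 fell, 2 rose and 2 were not called. Their median log2 fold change was -0.39, also with YUC2 at its bound, against -0.04 over all tested genes. AS1, which represses KNOX genes in the leaf, fell from 1165 and 1175 counts to 331 and 302, a log2 fold change of -1.12 ± 0.08. HAT2, an auxin-induced homeobox gene, fell from 4.90 and 4.73 to 2.02 and 2.24 CPM. SAUR65, of a family that promotes cell expansion, fell from 162 and 113 counts to 39 and 25. KNAT3, a class II KNOX gene, fell from 103.2 and 111.4 to 74.0 and 75.3 CPM. YUC2, an auxin synthesis gene, had 22 counts in each leaf library and 0 in protoplasts, which is at least 4.28-fold lower when 0 is taken as 3 counts per library. For KRP1, an inhibitor of cell cycle kinases, the leaf libraries held 28.1 and 25.7 CPM and the protoplast libraries 19.6 and 25.8, which overlap. The call of KRP1 as lower (adjusted p = 0.0391, edgeR) ended in 5 of 11 alternatives, among them leaving out leaf replicate 1 or protoplast replicate 1. Over the 11 the adjusted p of KRP1 ran from 1.01e-08 to 0.44. IAA3, a repressor of auxin response, had 65.6 and 62.6 CPM in leaf against 58.0 and 66.5 in protoplasts and was not called, though it was under upper-quartile (-0.37) and library-size scaling (-0.85). ARR16, a type-A cytokinin regulator, had a mean of 21.1 CPM in leaf and 22.4 in protoplasts and was not called either. Under upper-quartile (-0.24) and library-size scaling (-0.72) ARR16 was called lower.

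LOX2 was one of the 2 genes of that list that rose. It encodes a lipoxygenase of the chloroplast that starts jasmonate synthesis and is a direct target of TCP4. Its level went from 389.9 and 422.4 to 953.5 and 897.2 CPM, a log2 fold change of 1.19 ± 0.06 (adjusted p = 6.01e-10, edgeR), while all 5 genes of the miR319 group fell in the same libraries. YUC8, an auxin synthesis gene, was the other, with leaf counts of 10 and 7 and protoplast counts of 28 and 43. The window from 250 bases before to 50 after the annotated start of LOX2 is shown because it holds the core of the motif bound by class II TCP proteins, TGGTCC, on both strands. RefSeq TAIR10.1 places it at chr3:16524995-16525294 on the plus strand, and capitals mark the core or its reverse complement.
LOX2 promoter: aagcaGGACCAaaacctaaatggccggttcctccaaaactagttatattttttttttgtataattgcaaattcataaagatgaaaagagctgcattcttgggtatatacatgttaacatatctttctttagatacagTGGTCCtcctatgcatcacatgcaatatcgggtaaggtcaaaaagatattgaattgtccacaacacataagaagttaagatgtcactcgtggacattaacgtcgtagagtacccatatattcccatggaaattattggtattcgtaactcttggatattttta
The matches begin at -245 and -113 relative to the start. Of 27443 protein-coding genes, 6.99% have the core in such a window, and 0 of the 8 CIN-type TCP genes do. The letters alone do not show binding.

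CUC1, CUC2, CUC3 and STM, which mark boundaries and the meristem and are held down by CIN-type TCP activity, had at most 8 counts in any library and were not tested. Of 12 GRF and GIF genes, which sustain cell proliferation and of which several GRF genes are targets of miR396, 6 were tested, of which 5 fell and 1 rose. The median log2 fold change of these 6 was -1.72, against -0.04 over all tested genes, of which 40.7% fell and 39.8% rose. Of the genes that fell, all but GIF2 had at most 10 counts in either protoplast library. They passed the filter on low counts through leaf alone, so these falls and the median follow in part from the filter. GRF1 fell from 90 and 123 counts to 8 and 5. GRF2 fell from 50 and 68 to 8 and 0, a call that ended with DESeq2 (adjusted p = 0.0975; lowest over the alternatives 6.78e-09). GIF2 fell from 25.0 and 27.1 to 16.0 and 17.0 CPM, and GIF3 rose from 2.33 and 2.51 to 3.86 and 3.58 CPM, which turned to a log2 fold change of -0.18 with library size only. With DESeq2 2 of these genes were lower.

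Cell division genes had 3 members that rose, 3 that fell and 4 not called among 10 tested, with a median of -0.05. The same test called 39.8% of the 20200 genes higher and 40.7% lower, and the all-gene median log2 fold change was -0.04. CYCD3;1, a cyclin that drives entry into the cell cycle in leaves, rose from 2.15 and 2.32 to 55.8 and 53.3 CPM (log2 fold change 4.61 ± 0.08). E2FA, an activator of DNA replication genes, rose from 1.96 and 1.99 to 6.88 and 6.85 CPM. CDKB2;1, a kinase of mitosis, fell from 78 and 62 counts to 2 and 6, and KNOLLE, a syntaxin of the cell plate, from 117 and 95 to 23 and 8. The number that rose was 2 with DESeq2, with library size only, without leaf replicate 2 and without protoplast replicate 1.

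**Figure D5:**
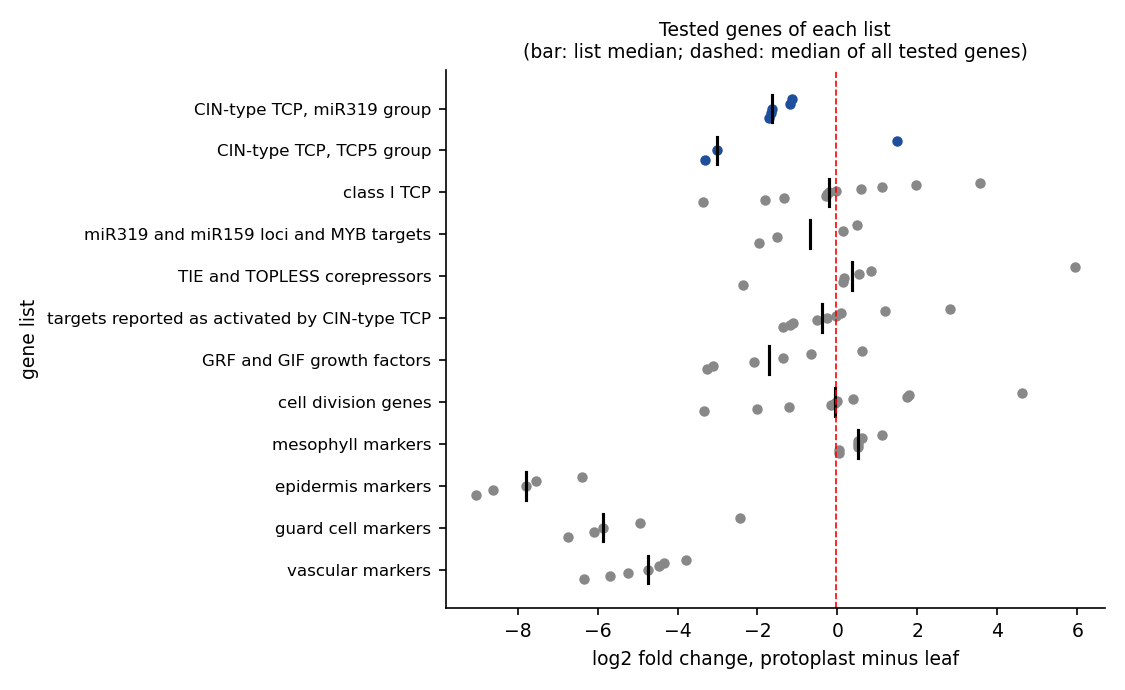
Log2 fold change, protoplast minus leaf (horizontal axis), of the tested genes in each list (vertical axis), with a bar at the list's median and a dashed line at -0.04, the median of all tested genes; YUC2, with no protoplast counts, is not drawn. The CIN-type genes other than TCP13 lie between the mesophyll markers (median 0.51) and the vascular markers (median -4.75).

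The 7 CIN-type genes that fell had log2 fold changes from -3.30 to -1.13, and the markers of cell types that were low in protoplasts from -9.05 to -2.44. All 5 tested epidermis markers, all 5 guard cell markers and all 7 vascular markers fell, with median log2 fold changes of -7.80, -5.87 and -4.75. A fall was called for 40.7% and a rise for 39.8% of all tested genes. CUT1 and FDH, wax and epidermal elongases, had log2 fold changes of -9.05 and -8.62, and PP2-A1, a phloem lectin, had -6.33. APL, a regulator of phloem identity, fell least among the vascular markers, at -3.78, and still further than TCP5. FAMA, a regulator of guard cell identity, fell least of the guard cell markers, at -2.44, which lies between TCP17 and TCP24. The other guard cell markers passed the filter on low counts through leaf alone, as did some of the epidermis and vascular markers. Of 7 mesophyll markers 5 rose and 2 were not called (median 0.51), against 1 higher and 6 lower with library size only. CA1, a carbonic anhydrase, rose, with a log2 fold change of 1.11, against 1.5 for TCP13.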

How the data were processed

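The authors deposited whole-number read counts per gene locus, 1 column per library and without normalization. Per the submitters' processing notes, STAR and DESeq were used. Not given in the sources used here are the counter, its strand setting, the annotation and the build. Each row sums to at least 2, and 24651 of 24904 loci matched RefSeq TAIR10.1, which gave symbols, gene models and sequences. Symbols follow the Arabidopsis literature where RefSeq differs (TCP13 is PTF1 and TCP21 is TCP11 there). TCP6, TCP11, E2FA and PSAD2 do not carry those symbols there and were kept by locus.

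The test was edgeR's quasi-likelihood F test (version 4.0.16, R 4.3.3), with filterByExpr (4704 loci set aside), TMM factors (1.32 for both leaf libraries, 0.764 and 0.749 for protoplasts) and group as the only term. Benjamini-Hochberg adjustment ran over 20200 genes at a threshold of 0.05. The SE is the size of the log2 fold change over the square root of F. CPM use TMM-scaled library sizes. Order by length used the annotated coding length. Alternatives included DESeq2 1.42.0 and limma 3.58.1. The edgeR, DESeq2 and limma-voom fits were also run on simulated counts. Far fewer genes changed there than here, so that run cannot vouch for the calls in these data.

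The members and lists were chosen with earlier results of these data known. Named genes are the 8 members, genes of the TCP, microRNA, corepressor and target lists, up to 2 called genes at each end of the other lists, and the 3 genes most like each of the 2 members with the highest mean CPM over the 4 libraries (TCP10 and TCP13). In the list of CUC and class I KNOX genes none was tested, and CUC1, CUC2, CUC3, STM and KNAT6 are named. Of 108 listed genes 10 have no row. A count of 0 was taken as at most 3 counts per library. Reads carry no molecular identifiers, so intervals and bounds cover counting error only.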

Additional observations from a re-analysis of the deposited data

How the results depend on the processing

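All 8 CIN-type TCP genes kept their direction and their call in each of the 11 alternatives (RLE, upper-quartile and library-size scaling, no filter, DESeq2, limma-voom, the replicate block and leaving out each library), with the highest adjusted p at 2.53e-05, for TCP17. Over all genes, library size only gave 4326 higher and 14057 lower against 8036 and 8231, with 23.5% of calls higher against 49.4%, and upper-quartile factors 35.9%. With library size only, the leaf means in CPM were 42.8 for TCP2, 26.0 for TCP3, 29.6 for TCP4, 9 for TCP5, 92.8 for TCP10, 20.8 for TCP13, 4.90 for TCP17 and 24.3 for TCP24, and the protoplast means 7.77, 6.55, 5.48, 0.516, 24.2 and 33.7 for the first 6 and 4.23 for TCP24. For the 52 listed genes whose fold change was tested and which the text names, 530 of 572 alternative values kept direction and call, 20 lost and 10 gained the call, and 12 changed sign. With library size only the log2 fold change turned to -0.21 for TCP19, -0.67 for TPL, -0.64 for TPR1, -0.25 for TPR2, -0.72 for ARR16, -0.18 for GIF3 and -0.19 for GAPA. Upper-quartile factors turned TPL to -0.19, TPR1 to -0.16 and ARR16 to -0.24. Leaving out 1 library gave -0.15 to 0.04 for IAA3 and 0.00 to 0.16 for ARR16.

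Of the gene lists, corepressors had 3 higher and 3 lower under upper-quartile scaling, 1 and 4 under library-size scaling, 3 and 2 without a filter, and 3 higher with the replicate block. Leaving out a library gave 3 to 5 higher corepressors. With library size only the cell division list had 5 lower, the GRF and GIF list 0 higher, and the mesophyll list 1 higher and 6 lower. With upper-quartile factors these were 5, 0 and, for mesophyll, 2 lower. Without a filter the CYC/TB1-type list had 2 lower, the microRNA and MYB list 1 higher and the GRF and GIF list 2 higher. With DESeq2 class I TCP had 3 lower, the microRNA and MYB list 1 higher and the GRF and GIF list 2 lower. The cause was not tested. The labels do not say that a replicate number marks a shared plant or day. Deviations of same-numbered libraries from their group means correlated at -0.0793 over genes, and the replicate block gave 7782 higher and 7868 lower genes. Per kilobase of merged exons, chosen after seeing the data, TCP3 took place 3, TCP24 place 4 and TCP4 place 5 in leaf, and TCP4 place 6 in protoplasts. Depth limits TCP17 in protoplasts, with 22 and 9 counts, and leaves CUC, class I KNOX and CYC/TB1-type genes untested.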
